A study of Mus musculus with 10 samples.

Results

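The claudin genes examined here were Cldn3, Cldn4, Cldn5, Cldn6, Cldn7, Cldn9, Cldn10 and Cldn12. They are the rows of the deposited table with these gene symbols, 8 of the 20974 genes in the table and 8 of its 17 claudin genes. Expression was measured by RNA-sequencing of 10 single mouse embryos at embryonic day (E) 7.5, 5 Rreb1-/- and 5 Rreb1+/+. Rreb1 encodes a zinc finger transcription factor. In Rreb1-/- embryos most of the coding sequence of exon 6 was deleted by CRISPR on both alleles, and the study combined 2 deletion lines. The Rreb1+/+ embryos came from the same kind of Rreb1+/- intercross. The labels give the strain of all embryos as CD1, while the study's methods describe a mixed background. The parietal endoderm of each embryo was removed for genotyping, and the RNA came from all other tissues together, so that fewer cells of a type and less RNA per cell cannot be told apart in any value below. The study describes Rreb1-/- embryos as smaller and developmentally delayed relative to littermates, starting at E7.5. The part of developmental stage in any difference below was not tested.

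Claudins are membrane proteins with 4 transmembrane segments that polymerise into the strands of tight junctions, the seal between neighbouring epithelial cells. Each claudin makes the seal tighter or forms a pore for certain ions, so that the set of claudins a cell expresses determines what passes between cells. Scaffold proteins such as Tjp1 (ZO-1) tie the strands to actin, and transcription factors that drive epithelial cells into a mesenchymal state, such as those of the Snail and Zeb families, repress several claudin genes. At E7.5 the visceral endoderm, the extraembryonic ectoderm and the epiblast are epithelia, while cells that pass through the primitive streak lose their epithelial junctions.

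Values are normalized counts, which are reads per gene divided by the authors by 1 size factor per embryo. The reads behind them summed to between 31467767 and 35786876 per embryo. The numbers 2 to 6 of the replicates are those of the sample titles, which do not name a litter or batch. Only 3 of 10 embryos were most like the embryo of the other genotype with the same number. Comparisons within a replicate number are therefore descriptions, as the numbers are not known to mark pairs. The total Rreb1 count was 3988 to 5715 in Rreb1-/- embryos and 2365 to 2924 in Rreb1+/+ embryos; it is summed over all exons and so does not check the deletion. The first principal component held 37% of the variance and set replicates 5 and 6 of both genotypes apart from replicates 2 to 4. Y-linked genes were read in Rreb1-/- replicates 3 to 6, while Rreb1-/- replicate 2 and all Rreb1+/+ embryos had at most 3.82 normalized counts over the 4 Y-linked genes examined, so sex and genotype can be separated only through Rreb1-/- replicate 2. Markers of the tissues of the embryo were present, with all 9 visceral endoderm, 9 extraembryonic ectoderm and 6 epiblast markers above 0 in every embryo.

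Of the 8 claudins, 7 had a mean of at least 15 normalized counts in at least 1 genotype and were tested with limma among 15603 genes; Cldn10 was below that level. Cldn7 was lower in Rreb1-/- embryos and Cldn9 was higher, each at an adjusted p under 0.05 (Benjamini-Hochberg, over all genes tested). The other 5 tested claudins did not pass. Over all genes tested 3.11% were called higher in Rreb1-/- embryos and 1.15% lower. The median log2 fold change of the 7 claudins was -0.04, beside -0.02 for all genes tested. The groups did not overlap for Cldn7 and Cldn9 alone among the 8 claudins, and of all genes tested 4.24% were higher and 2.46% lower in every Rreb1-/- embryo than in every Rreb1+/+ embryo. The sum of the 8 claudins was 16957 ± 1775 normalized counts in Rreb1-/- embryos and 18340.0 ± 1757 in Rreb1+/+ embryos (SD, n = 5 each), a sum made up mostly of Cldn6. Within each of the 5 replicate numbers the sum was lower in the Rreb1-/- embryo, by amounts that left the genotypes overlapping. Before adjustment, 9.74% of all genes tested were higher and 8.21% lower in Rreb1-/- embryos at a p under 0.05, and the unadjusted counts given further on stand beside these shares.

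**Figure D1:**
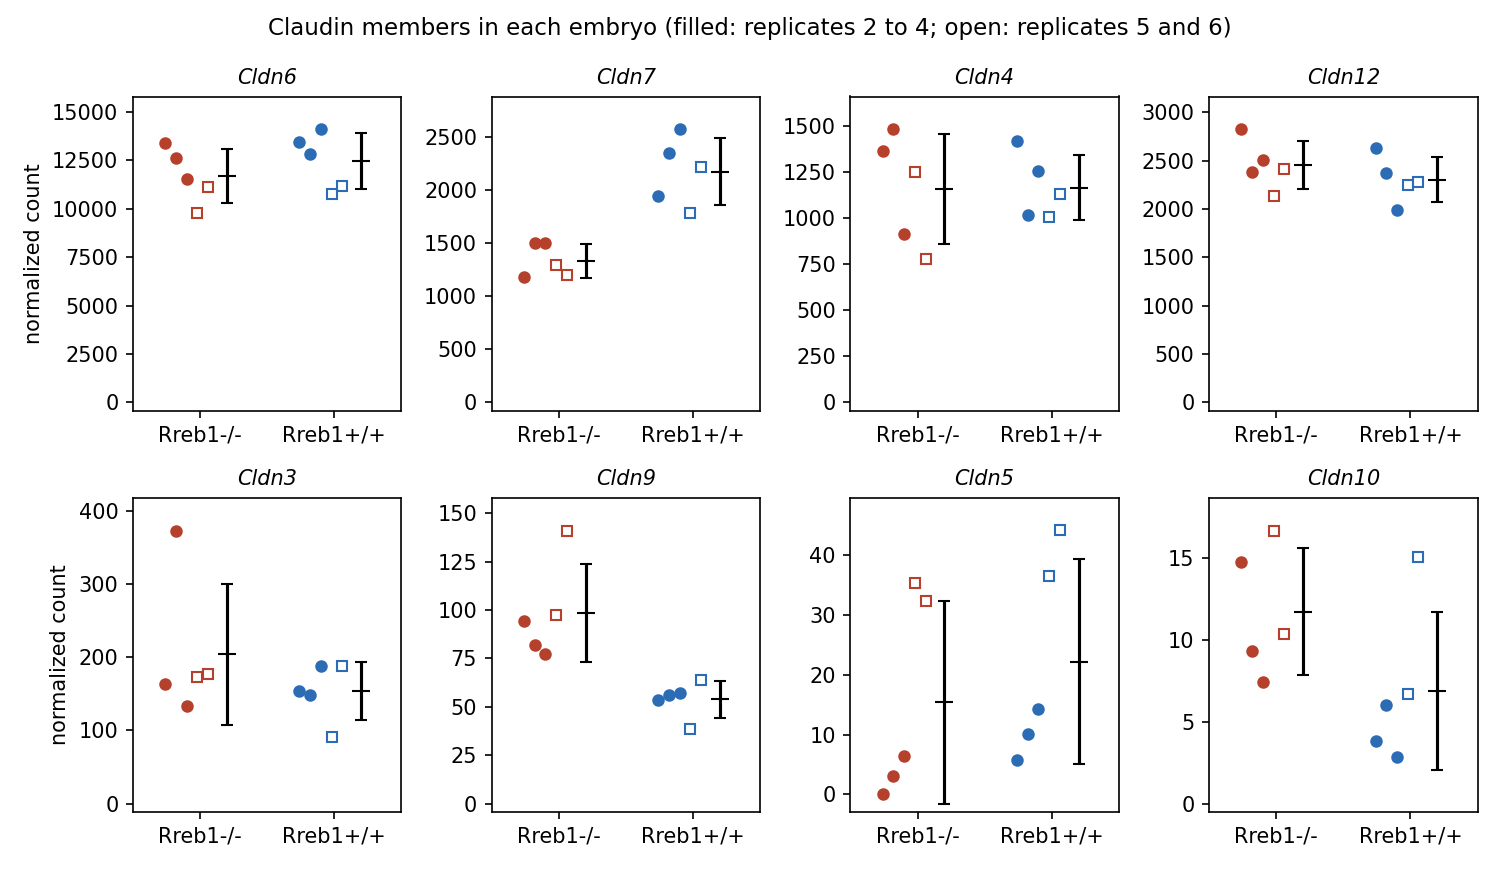
Normalized count of each of the 8 claudins (vertical axes, 1 scale per gene) in each embryo, Rreb1-/- left and Rreb1+/+ right; circles are replicates 2 to 4, squares replicates 5 and 6, and the bars beside them the mean ± SD of 5 embryos. Cldn7 lay between 1176 and 1504 in Rreb1-/- embryos, below all Rreb1+/+ embryos, Cldn9 lay above them, and the other 6 genes overlapped.

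The order of the claudins was compared per kilobase of exon, so that gene length does not enter. Cldn6, a claudin of embryonic epithelia, was the highest, with a mean of 6789.6 normalized counts per kb (5677 to 7777) in Rreb1-/- embryos and 7242.5 (6267.5 to 8195) in Rreb1+/+ embryos. It made up 65.4% to 70.0% of the summed per-kb level of all 17 claudin genes in Rreb1-/- embryos and 64.4% to 68.3% in Rreb1+/+ embryos. Next came Cldn7, Cldn4 and Cldn12, with means of 684, 637 and 580.2 per kb in Rreb1-/- embryos. In Rreb1+/+ embryos the same 3 genes had means of 1114, 642 and 545 per kb. Among the Rreb1-/- embryos the per-kb ranges of Cldn7 and Cldn4 overlapped, whereas among the Rreb1+/+ embryos all values of Cldn7 (at least 914) were above those of Cldn4 (at most 782). The ranges of Cldn4 and Cldn12 overlapped in both genotypes. Cldn3 followed at a mean of 162 per kb in Rreb1-/- embryos and 122 in Rreb1+/+ embryos, then Cldn9 at 68.2 in Rreb1-/- embryos and 37.4 in Rreb1+/+ embryos. The ranges of Cldn9 and Cldn5 overlapped in Rreb1+/+ embryos and not in Rreb1-/- embryos. Cldn5, at 10.9 per kb in Rreb1-/- embryos and 15.7 in Rreb1+/+ embryos, and Cldn10, at 4.54 in Rreb1-/- embryos and 2.66 in Rreb1+/+ embryos, overlapped each other in both genotypes. The order of the means was the same in both genotypes.

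**Figure D2:**
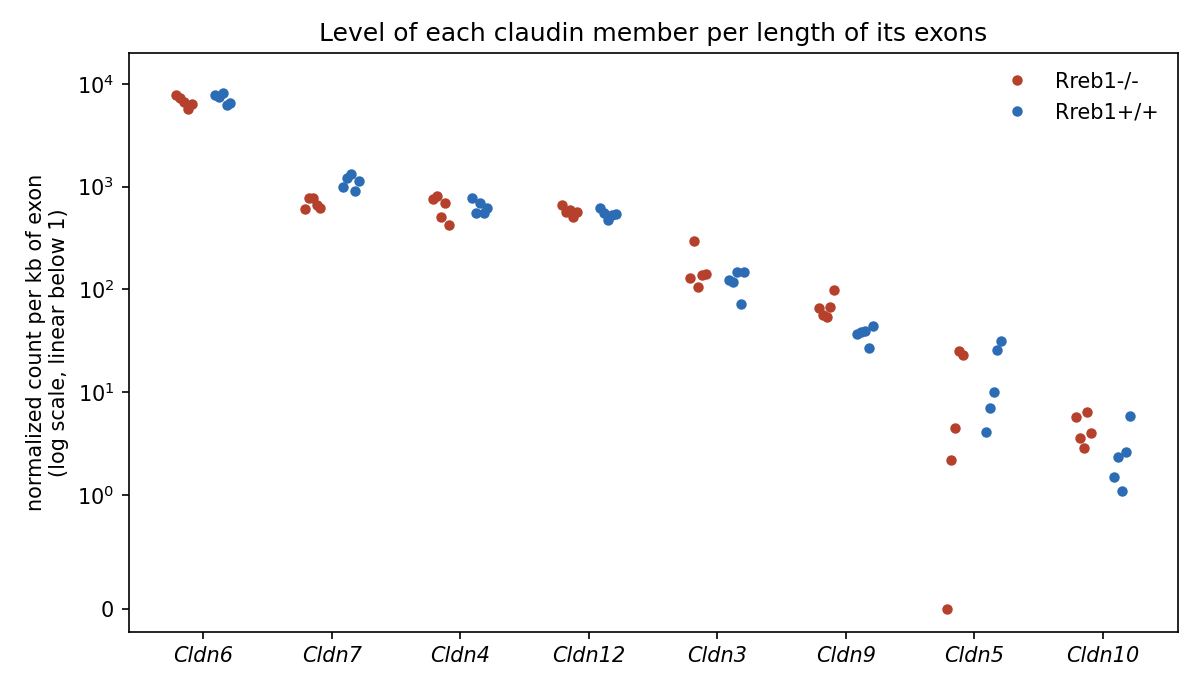
Normalized count per kb of exon of each claudin (vertical axis, log scale, linear below 1), with 1 point per embryo, Rreb1-/- left and Rreb1+/+ right at each gene. Cldn6 stands highest in all embryos and Cldn5 and Cldn10 lowest, with 1 Rreb1-/- embryo at 0 for Cldn5.

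Cldn7 encodes a claudin of many simple epithelia that binds the adhesion molecule Epcam. The gene (ENSMUSG00000018569.12) lies on chromosome 11 at 69964779 to 69967885 on the plus strand (GENCODE M21, GRCm38). The RefSeq promoter table (GRCm38.p6) gives 2 starts for it, and the window of the downstream start is shown, from 250 bases before to 50 bases after the start, because it holds the hexamer CAGGTG, read on both strands (CACCTG). This E-box is a sequence that Snail and Zeb family repressors bind. Snai1, Snai2, Zeb1 and Zeb2 had log2 fold changes of 0.26, -0.61, -0.40 and -0.20 and were not called (limma adjusted p = 0.319 to 0.674). Windows of Cldn6 and Cldn4, which did not pass the test, are shown for comparison. Capitals mark the E-boxes.
Cldn7, chr11:69965171-69965470, plus strand: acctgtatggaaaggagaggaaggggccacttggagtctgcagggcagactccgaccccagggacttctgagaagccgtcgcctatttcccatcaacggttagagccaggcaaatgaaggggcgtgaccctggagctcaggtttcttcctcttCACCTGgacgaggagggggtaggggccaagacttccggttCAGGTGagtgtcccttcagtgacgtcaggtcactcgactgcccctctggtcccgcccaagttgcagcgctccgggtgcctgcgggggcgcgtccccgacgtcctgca
Cldn6, chr17:23679115-23679414, plus strand: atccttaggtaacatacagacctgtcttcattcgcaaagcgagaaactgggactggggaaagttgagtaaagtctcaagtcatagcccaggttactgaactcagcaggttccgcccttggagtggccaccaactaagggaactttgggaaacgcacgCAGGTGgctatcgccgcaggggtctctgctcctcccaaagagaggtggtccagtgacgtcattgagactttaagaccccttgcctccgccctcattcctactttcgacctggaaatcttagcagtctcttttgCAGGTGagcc
Cldn4, chr5:134946885-134947184, minus strand: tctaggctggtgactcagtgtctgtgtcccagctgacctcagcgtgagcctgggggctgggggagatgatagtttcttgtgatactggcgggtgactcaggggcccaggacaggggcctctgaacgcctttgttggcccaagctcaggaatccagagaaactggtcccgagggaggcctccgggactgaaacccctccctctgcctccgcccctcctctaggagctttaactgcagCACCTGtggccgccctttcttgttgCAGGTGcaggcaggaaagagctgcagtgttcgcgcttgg
Each of the 3 windows held 2 E-boxes. In the Cldn7 window their first bases were at -97 and -57, counted from the start as 0, in the Cldn6 window at -93 and 40, and in the Cldn4 window at -14 and 11. Of the 7 claudins with a window in the table, Cldn3 also held 1 E-box, at 31, and Cldn5, Cldn10 and Cldn12 held none, nor did the upstream window of Cldn7. Of all 32851 windows of this length, 20.2% held at least 1 E-box and 2.88% held 2 or more. The Grainyhead sequence AACCGGTT, searched on both strands (it reads the same on each), was in none of the 11 windows of these claudins and in 0.146% of all windows. These matches describe letters in the windows, and no binding was measured. The E-box was in windows of Cldn7, which was called lower, and of Cldn3, Cldn4 and Cldn6, which did not pass the test. Cldn9, the other claudin called, had no window and was not examined. The part of the E-box in any of these levels was not tested.

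Cldn7 had 1176, 1504, 1497, 1289 and 1196 normalized counts in Rreb1-/- replicates 2 to 6, against 1942, 2343, 2569, 1781 and 2214 in Rreb1+/+ replicates 2 to 6. Every Rreb1-/- embryo was below every Rreb1+/+ embryo. The mean was 1332.5 ± 159 in Rreb1-/- embryos and 2169.9 ± 314 in Rreb1+/+ embryos (SD, n = 5 each), so that the Rreb1-/- mean was 61.4% of that of Rreb1+/+. The log2 fold change was -0.70 (SE 0.11, 95% interval -0.95 to -0.45, limma adjusted p = 0.00487), and the two-sided exact permutation test gave p = 0.00794, the smallest it allows. The fold change was close to the same in replicates 2 to 4 alone, at -0.71 (adjusted p = 0.0362 by limma), and in replicates 5 and 6 alone, at -0.68 (adjusted p = 0.113 by limma). With a covariate for Y-linked reads (the log2 of their summed count) it was -0.88 and no longer passed (adjusted p = 0.0895 by limma); Rreb1-/- replicate 2, the Rreb1-/- embryo at background for Y-linked genes, had the lowest count of all 10. Leaving out each embryo in turn gave -0.77 to -0.64, with the call kept 10 of 10 times.

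Marker lists of tissues of the embryo were read beside Cldn7. The 9 visceral endoderm markers summed to 203286.5 to 285912 normalized counts in Rreb1-/- embryos and 272189.8 to 307609 in Rreb1+/+ embryos, with overlap. Their sum was lower in the Rreb1-/- embryo of 4 of 5 replicate numbers, and their median log2 fold change was -0.22. Of the 9, 1 was called lower, Afp, a secreted serum protein of the visceral endoderm (log2 fold change -1.32, limma adjusted p = 0.0157). The 9 extraembryonic ectoderm and trophoblast markers summed to 8637 to 14321 in Rreb1-/- embryos and 9164 to 13582 in Rreb1+/+ embryos, and 0 of 9 were called. The 6 epiblast markers summed to 15579.7 to 51123 in Rreb1-/- embryos and 19673 to 50673 in Rreb1+/+ embryos, and 0 of 6 were called. By limma at an unadjusted p under 0.05, 1 of the extraembryonic ectoderm markers was higher and 0 were lower, and 0 of the epiblast markers passed either way. The 5 parietal endoderm markers, from the tissue dissected off for genotyping, summed to 17774 to 40080.4 in Rreb1-/- embryos and 16876 to 21498 in Rreb1+/+ embryos. Their median log2 fold change was 0.33, and 1 of them, the plasminogen activator Plat, was called higher (log2 fold change 1.45, limma adjusted p = 0.0049). Sparc (0.38) and Lama1 (0.33) did not pass, and Thbd (-0.40) and Stra6 (-0.44) went the other way without passing. Their high sums were those of Rreb1-/- replicates 2 and 6 (40080.4 and 37994), and replicates 3 to 5 had 17774 to 18833.5. Rreb1-/- replicates 2 and 6 also had the lowest Cldn7 counts, and replicate 6 the highest Cldn9 count. In Rreb1-/- replicates 3 to 5 Cldn7 was 1289 to 1504 and Cldn9 was 77.5 to 97.6. As the full groups did not overlap for either gene, no subset of these embryos could overlap. The sum of the 5 primitive erythroid markers was lower in the Rreb1-/- embryo of 5 of 5 replicate numbers. It was 349 to 2937.5 in Rreb1-/- embryos and 1052 to 12223 in Rreb1+/+ embryos. The median log2 fold change of these markers was -1.66, and 0 of 5 were called (2 lower before adjustment, by limma). The 6 primitive streak and nascent mesoderm markers summed to 3039 to 14230.5 in Rreb1-/- embryos and 3387.5 to 13131 in Rreb1+/+ embryos, higher in the Rreb1-/- embryo of 4 of 5 replicate numbers, with a median of 0.69 and 0 of 6 called (1 higher before adjustment, by limma). The part of these markers in the Cldn7 and Cldn9 differences was not tested. Epcam, the partner of Cldn7, had a mean of 4619.7 ± 887 in Rreb1-/- embryos and 4536 ± 711 in Rreb1+/+ embryos (SD, n = 5 each; log2 fold change 0.02, limma adjusted p = 0.963).

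Cldn9, known in the mouse from the inner ear, where its loss causes deafness, lies on chromosome 17 at 23682584 to 23684026 on the minus strand. Its end faces the end of Cldn6 (23679249 to 23682446, plus strand), and 137 bases separate the 2 gene models. Cldn9 had 94.3, 82.1, 77.5, 97.6 and 141 normalized counts in Rreb1-/- replicates 2 to 6, against 53.7, 56.2, 57.3, 38.4 and 64.1 in Rreb1+/+ replicates 2 to 6. The lowest Rreb1-/- embryo was above the highest Rreb1+/+ embryo, and Rreb1-/- replicate 6 was the highest of all. The mean was 98.5 ± 25.1 in Rreb1-/- embryos and 53.9 ± 9.49 in Rreb1+/+ embryos (SD, n = 5 each), and the log2 fold change was 0.84 (SE 0.20, 95% interval 0.40 to 1.28, limma adjusted p = 0.0389; two-sided exact permutation p = 0.00794). The call rests on counts of 40 to 135 reads per embryo and was lost when any embryo other than Rreb1-/- replicate 4 was left out (limma adjusted p = 0.0531 to 0.0846, and 0.0464 without Rreb1-/- replicate 4). It was also lost with the Y-linked covariate (log2 fold change 0.85, limma adjusted p = 0.249), in replicates 2 to 4 alone (0.59, adjusted p = 0.162) and in replicates 5 and 6 alone (1.22, adjusted p = 0.239). The direction was the same each time.

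Because Cldn6 was read far more often than its neighbour Cldn9, the sequences of the 2 transcripts were compared. The longest stretch that any 2 of the 8 claudins had in common was 37 bases, between Cldn6 and Cldn9, in the coding sequence of both (GENCODE M21, GRCm38). It is shown in capitals with 15 bases on each side.
Cldn6, chr17:23681134-23681200, plus strand: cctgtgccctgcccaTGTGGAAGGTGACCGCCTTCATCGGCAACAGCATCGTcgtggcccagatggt
Cldn9, chr17:23683513-23683579, minus strand: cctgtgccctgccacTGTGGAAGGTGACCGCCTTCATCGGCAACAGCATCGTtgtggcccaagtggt
The stretch is shorter than a read of 50 bases. The next longest was 35 bases, between Cldn3 and Cldn4, and all other pairs had 20 or fewer. Only exact matches were compared, and most of the bases shown beside the Cldn6 and Cldn9 stretch are also the same. Whether reads of Cldn6 were counted for Cldn9 with mismatches was not tested. Cldn9 was 0.705%, 0.650%, 0.671%, 0.999% and 1.27% of Cldn6 in Rreb1-/- replicates 2 to 6, against 0.400%, 0.438%, 0.406%, 0.356% and 0.574% in Rreb1+/+ replicates 2 to 6. The share was thus higher in every Rreb1-/- embryo, while Cldn6 itself was not called. Whether the counting used the strand of the reads is not given in the sources used here, so reads beyond the end of Cldn6 and reads of Cldn9 may not be told apart.

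**Figure D3:**
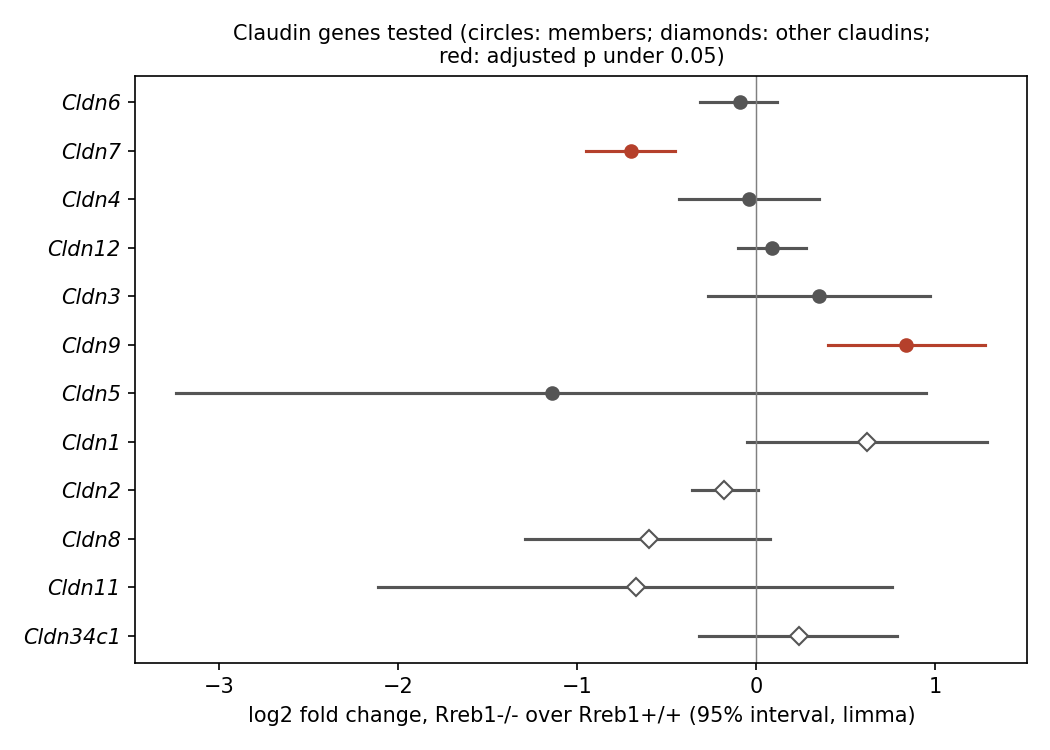
Log2 fold change (Rreb1-/- over Rreb1+/+, horizontal axis) of the 12 claudin genes tested with limma, with 95% intervals; circles are the 7 claudins described above, diamonds the 5 other claudins, and red marks an adjusted p under 0.05. The intervals of Cldn7 and Cldn9 lie on opposite sides of 0, that of Cldn6 is narrow around -0.09, and that of Cldn5 runs from -3.24 to 0.95.

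Cldn6, the most abundant claudin, had 13384, 12621, 11550.1, 9769.7 and 11099.6 normalized counts in Rreb1-/- replicates 2 to 6, against 13425, 12843, 14104, 10786 and 11163 in Rreb1+/+ replicates 2 to 6. The groups overlapped (two-sided exact permutation p = 0.413). The Rreb1-/- embryo was the lower in 5 of 5 replicate numbers, which are not known to mark pairs. Within each genotype replicates 5 and 6 were the lowest. The log2 fold change was -0.09 (95% interval -0.31 to 0.12, limma adjusted p = 0.667), which in linear terms covers 0.806 to 1.09 times the Rreb1+/+ level. Cldn12, an unusual claudin that lacks the end by which most claudins bind scaffold proteins (chromosome 5, 5489537 to 5514958), had 2824, 2385, 2509, 2137 and 2409.5 in Rreb1-/- replicates 2 to 6, against 2632, 2368, 1994.5, 2245 and 2277 in Rreb1+/+ replicates 2 to 6. These groups overlapped as well, and the log2 fold change was 0.09 (95% interval -0.10 to 0.28, limma adjusted p = 0.635).

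Cldn3 and Cldn4 encode claudins that tighten the seal and serve as receptors of the Clostridium perfringens enterotoxin, and they lie 39279 bases apart on chromosome 5 (Cldn3 at 134986214 to 134987472, Cldn4 at 134945119 to 134946934). Cldn4 had 1363, 1482, 912, 1252 and 778 normalized counts in Rreb1-/- replicates 2 to 6, against 1421, 1015, 1255, 1008 and 1129 in Rreb1+/+ replicates 2 to 6. The Rreb1-/- embryos spanned the whole range of the Rreb1+/+ embryos, and the log2 fold change was -0.04 (95% interval -0.43 to 0.35, limma adjusted p = 0.932). Cldn3 had 163, 373, 133, 173 and 177 in Rreb1-/- replicates 2 to 6, against 154, 149, 188, 91.2 and 188 in Rreb1+/+ replicates 2 to 6. Rreb1-/- replicate 3 stood far above the other 9 embryos, which overlapped between genotypes. The log2 fold change of Cldn3 was 0.35 (95% interval -0.27 to 0.97, limma adjusted p = 0.564), and without Rreb1-/- replicate 3 it was 0.11. The same embryo had the highest Cldn4 count of the Rreb1-/- embryos. An antisense gene, Wbscr25, overlaps Cldn3, and without strand their reads cannot be told apart.

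Cldn5 encodes the main claudin of endothelial tight junctions (chromosome 16, 18776847 to 18778262). It had 0, 3.12, 6.37, 35.3 and 32.3 normalized counts in Rreb1-/- replicates 2 to 6, against 5.76, 10.04, 14.3, 36.5 and 44.3 in Rreb1+/+ replicates 2 to 6. Replicates 5 and 6 of both genotypes were higher than all embryos of replicates 2 to 4, and in each replicate number the Rreb1-/- embryo was the lower. The 0 in Rreb1-/- replicate 2 allows a level of up to 3.18 normalized counts (3 reads), for counting error only. The log2 fold change was -1.14 (SE 0.95, 95% interval -3.24 to 0.95, limma adjusted p = 0.575), and blocking on the replicate number gave an adjusted p of 0.130. This value depended on the lowest counts: it was -0.39 without Rreb1-/- replicate 2, the embryo at 0, -0.51 by edgeR, -0.52 by DESeq2 and -0.52 as the log2 ratio of the genotype means. It was -0.24 in replicates 5 and 6 alone and -4.30 with the Y-linked covariate, and it passed in no setting. The sum of the 6 endothelium markers, like Cldn5, was higher in replicates 5 and 6 than in replicates 2 to 4. The markers summed to 7174 to 9411 in replicates 5 and 6 and 3262.5 to 4877.5 in replicates 2 to 4, and by genotype to 3657 to 7325 in Rreb1-/- embryos and 3262.5 to 9411 in Rreb1+/+ embryos. Within replicates 2 to 4 the sum was the higher in the Rreb1-/- embryo of each number, the opposite of Cldn5. Of its members, this held for Kdr (2379 to 2835 in Rreb1-/- embryos, 1802 to 2084 in Rreb1+/+ embryos) and Sox7. Cdh5, Pecam1, Tie1 and Tek were the lower in the Rreb1-/- embryo of each of these numbers, as Cldn5 was. All embryos of replicates 5 and 6 were above those of replicates 2 to 4 for Pecam1, Tie1 and Tek. For Cdh5, Kdr and Sox7 they were not, and Sox7 was highest in Rreb1-/- replicates 2 and 6 (1091 and 1083). Of the 6, 0 were called between the genotypes by limma, and at p under 0.05 before adjustment 1 was higher and 0 were lower. Their part in the Cldn5 levels was not tested.

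**Figure D4:**
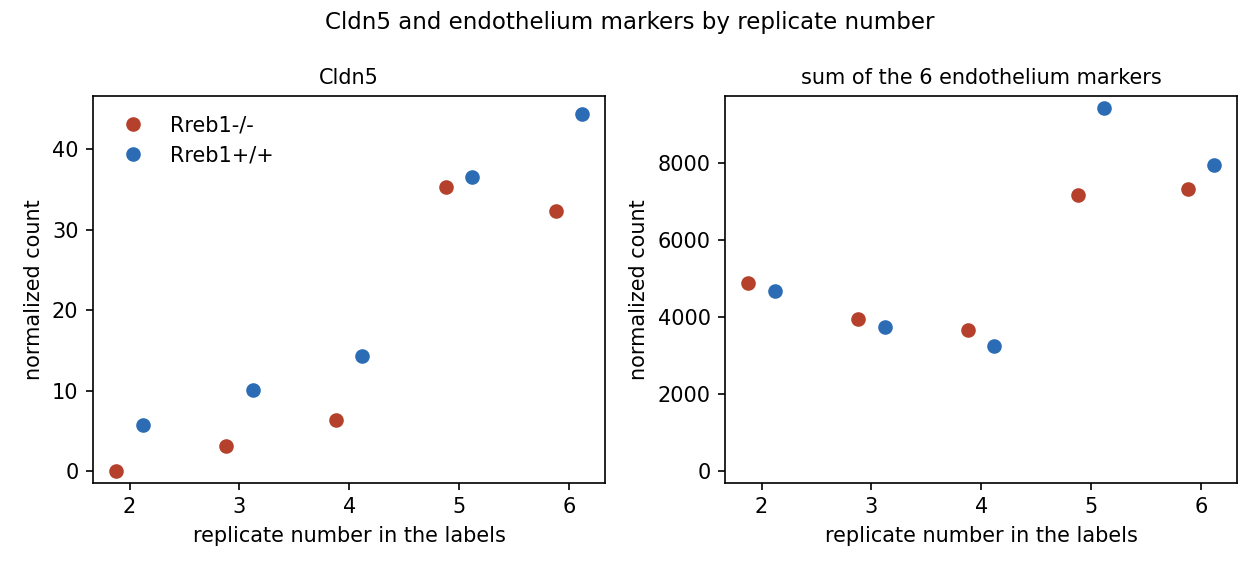
Normalized counts of Cldn5 (left) and summed normalized counts of the 6 endothelium markers (right) by replicate number, Rreb1-/- in red and Rreb1+/+ in blue, 1 point per embryo. Both are highest in replicates 5 and 6, where Cldn5 had 32.3 to 44.3 normalized counts.

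Cldn10, which forms ion-selective pores (chromosome 14, 118787908 to 118875489), was close to the detection limit, with 3 to 18 reads per embryo. It had 14.8, 9.35, 7.43, 16.7 and 10.4 normalized counts in Rreb1-/- replicates 2 to 6, against 3.84, 6.02, 2.86, 6.72 and 15.1 in Rreb1+/+ replicates 2 to 6. All Rreb1-/- embryos were above 4 of the 5 Rreb1+/+ embryos, and Rreb1+/+ replicate 6 lay within their range. The two-sided exact permutation test gave p = 0.0794. When genes were tested without the expression filter the log2 fold change was 0.82 (SE 0.40, limma adjusted p = 0.361).

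The genes whose centred log2 values were most like those of each tested claudin over the 10 embryos were found by the smallest root mean square difference, 2 per claudin. For Cldn7, whose own root mean square deviation was 0.389, they were Ptpn6 (difference 0.107), a tyrosine phosphatase, and Tmem102 (0.117), which lies on the same chromosome at 69803603 to 69805624. Ptpn6 was called lower in Rreb1-/- embryos (log2 fold change -0.58, limma adjusted p = 0.0104), and Tmem102 had -0.65 and did not pass (adjusted p = 0.0672). Both genes were picked for values like those of Cldn7 in the same embryos, so fold changes near that of Cldn7 follow from the choice. For Cldn9, with a deviation of 0.502, Ppp1r3f is given (0.190). For Cldn5, with a deviation of 1.66, they were Tie1 (0.527), an endothelial receptor that is also on the endothelium list, and Col3a1 (0.531), a fibrillar collagen. For Cldn3 they were Rom1 and Nkd1, for Cldn4 Zscan22 and Dnmt3l, for Cldn6 Ubxn8 and Trim26, and for Cldn12 Nudt21 and Zfp120, with differences of 0.0418 to 0.232.

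Of the other claudins listed, 9 were in the table and 5 were tested, and 0 were called by limma (0 also at an unadjusted p under 0.05). Cldn2, which forms a cation pore, was the highest of them per length, at 958 normalized counts per kb in Rreb1-/- embryos and 1078 in Rreb1+/+ embryos. Its log2 fold change was -0.18 (SE 0.08, limma adjusted p = 0.299). Cldn11, singled out after its values were seen, differed between the sets of replicates. In replicates 2 to 4 it had 12.7 to 16.6 normalized counts in Rreb1-/- embryos and 36.5 to 49.6 in Rreb1+/+ embryos (log2 fold change -1.51, limma adjusted p = 0.0241), and in replicates 5 and 6 it had 118 to 119.9 in Rreb1-/- embryos and 69.7 to 89.3 in Rreb1+/+ embryos (0.59, adjusted p = 0.429). The difference between the 2 sets was not tested.

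The other tight junction genes were read as 6 lists, including the other claudins, with 59 genes tested in all. Of these 1 was called higher and 2 lower, beside 3.11% and 1.15% of all genes tested, and their median log2 fold change was -0.07. Of 13 other strand and membrane proteins 1 was called higher and 0 lower; before adjustment 2 were lower, Marveld2 (log2 fold change -0.23, limma adjusted p = 0.271) and Igsf5 (-0.56, adjusted p = 0.0785), both named after their values were seen. Igsf5 did not overlap, at 68.8 to 101 in Rreb1-/- embryos and 108 to 148 in Rreb1+/+ embryos. The gene called was Jam3, an immunoglobulin-type junctional adhesion molecule, with 2083 to 2277 normalized counts in Rreb1-/- embryos and 1381 to 1599.9 in Rreb1+/+ embryos (log2 fold change 0.55, limma adjusted p = 0.000359). The groups did not overlap. F11r, another adhesion molecule of the same family, did not pass, with a log2 fold change near 0 (-0.01; adjusted p = 0.981 by limma). Of 4 membrane proteases and inhibitors 1 was called lower, Prss8 (prostasin), a membrane-anchored serine protease of epithelia, with 2208 to 2471 in Rreb1-/- embryos and 2682 to 3497 in Rreb1+/+ embryos (log2 fold change -0.42, limma adjusted p = 0.0111). Its inhibitors Spint1 and Spint2 had -0.12 and -0.10 and did not pass. Of 11 regulators of epithelial and claudin genes 1 was called lower, Ovol1, a zinc finger repressor that favours the epithelial state, with 43.6 to 78.2 in Rreb1-/- embryos and 117 to 186 in Rreb1+/+ embryos (log2 fold change -1.47, limma adjusted p = 0.00134). The calls of Jam3, Prss8 and Ovol1 held without any single embryo. With the Y-linked covariate their log2 fold changes were 0.49, -0.46 and -1.56 and no longer passed (limma adjusted p = 0.0797 to 0.165). In replicates 5 and 6 alone they were 0.55, -0.39 and -1.04 and did not pass (limma adjusted p = 0.121 to 0.390).

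Of the 16 plaque scaffolds and the 10 apical polarity proteins 0 were called by limma; at an unadjusted p under 0.05, 2 of the scaffolds were lower, and of the polarity proteins 1 was higher and 1 lower. Tjp1 averaged 9805 ± 877 in Rreb1-/- embryos and 10289.5 ± 1003 in Rreb1+/+ embryos (SD, n = 5 each; log2 fold change -0.07, limma adjusted p = 0.710), and for Amot, a scaffold of the Hippo pathway, the log2 fold change was 0.03 (adjusted p = 0.899 by limma). Pard3, a polarity scaffold, had 2570.2 to 3109 normalized counts in Rreb1-/- embryos and 3189 to 3457.5 in Rreb1+/+ embryos, without overlap, but did not pass (log2 fold change -0.18, limma adjusted p = 0.140). Prkci, the atypical protein kinase C of the same complex, had -0.04 (limma adjusted p = 0.771).

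**Figure D5:**
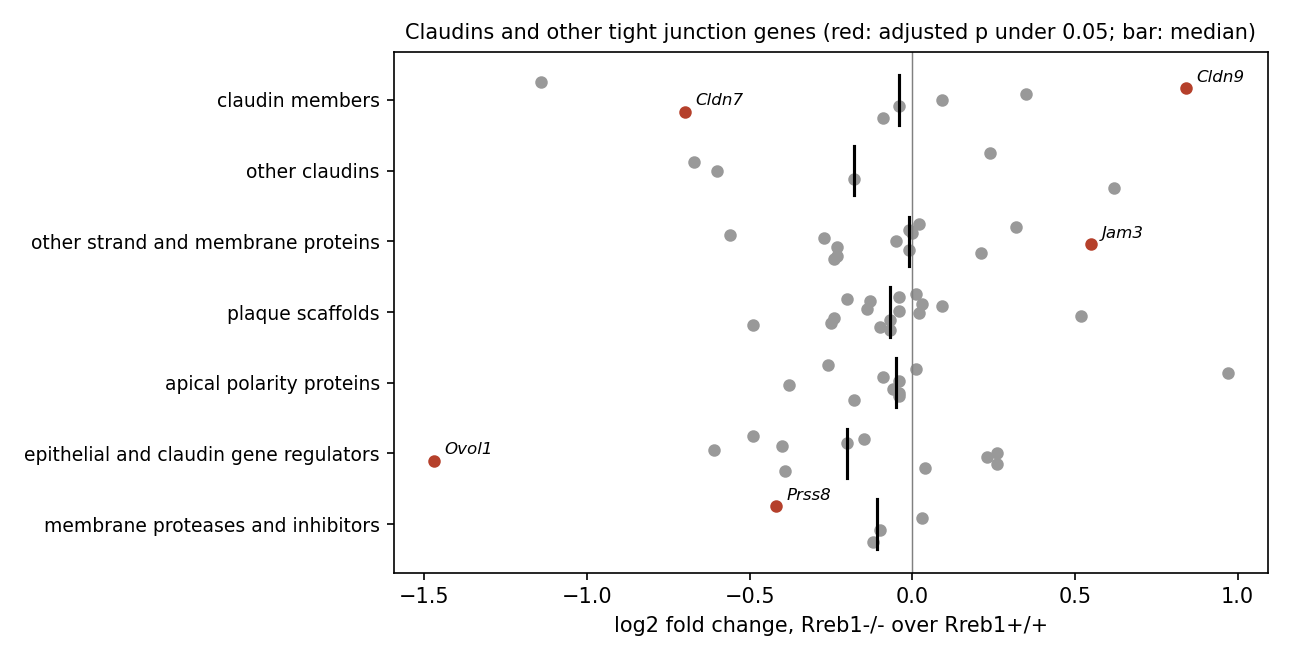
Log2 fold change (Rreb1-/- over Rreb1+/+, horizontal axis) of each tested gene in the 7 claudins, the 5 other claudins and the 5 further tight junction lists, 1 point per gene; red points passed an adjusted p under 0.05 by limma and are named, and bars mark list medians. The medians lie between -0.20 and -0.01, and 5 genes passed.

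With the replicate number as a block, Cldn7 (limma adjusted p = 0.0021) and Cldn9 (adjusted p = 0.0329) were called in the same directions, and 356 genes (2.28%) were called lower, against 179 without the block, and 716 (4.59%) higher, against 486. By edgeR on the recovered reads Cldn7 (adjusted p = 0.00514) and Cldn9 (0.0398) were the claudins called, beside 3.27% of genes higher and 1.15% lower. By DESeq2 the same claudins were called (adjusted p = 5.13e-07 for Cldn7 and 0.00577 for Cldn9), beside 5.06% higher and 2.71% lower.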

How the data were processed

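RNA was sequenced from 10 single embryos, each its own library (polyadenylated RNA, stranded kit, paired reads of 50 bases). Per the paper's methods and the labels, the authors aligned reads with STAR, counted them with HTSeq and normalized them with DESeq. The deposited signal is thus reads per gene after division by the size factor of the embryo. The sources used here do not give the genome build, the gene models or the strand setting of the counting. Every value (100%) was a multiple of the same step within its embryo (tolerance 0.1 read), and dividing by this step gave the reads used for depth, edgeR and DESeq2. Depth was 31467767 to 35786876 reads per embryo, and counting error weighs most on the low genes.

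Genes whose mean reached 15 in either genotype (15603 of 20974) were tested with limma 3.58.1 (R 4.3.3) on log2(normalized count + 1), with a variance trend and Benjamini-Hochberg adjustment. The call was an adjusted p under 0.05. The added 1 pulls fold changes of low genes towards 0, while a count of 0 in 1 embryo can enlarge them. For single claudins the 252 arrangements of the embryos gave an exact, two-sided permutation p (SciPy 1.17.1). Named genes were all 8 claudins, of each other tight junction list up to 4 passing genes with the smallest adjusted p and up to 2 others with the highest mean, and the 2 genes most like each claudin (1 of these genes is not reported here). Snai1, Snai2, Zeb1 and Zeb2 were named in addition, for the E-box. The members and lists were chosen with earlier results of these data known. Same-numbered embryos of the 2 genotypes deviated together (correlation 0.253 to 0.459 in 5 pairs, over 0.1 in each), although only 3 of 10 embryos were most like their own number, so the number was also used as a block. Alternatives were edgeR 4.0.16, DESeq2 1.42.0, TMM factors, quantile normalization, pseudocounts of 0.5 and 5, no filter or a mean of at least 50, an adjusted p under 0.01, a Y-linked covariate, subsets of replicates, ratios of means and leaving out each embryo. Positions came from GENCODE M21 (GRCm38) by gene ID, for 20884 genes, of which 14983 had the same ID version, and promoter windows from RefSeq (GRCm38.p6). The fit was tested on simulated data.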

Additional observations from a re-analysis of the deposited data

Results flagged for a closer look

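Of the 16 sets of 5 embryos formed by the 8 claudins and 2 genotypes, 1 held an embryo set apart from the rest, about as many as chance gives, at about 1 in 20. Cldn3 had 373 normalized counts in Rreb1-/- replicate 3, against 133 to 177 in the other 4 Rreb1-/- embryos, a gap of 0.814 of the range.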

How the results depend on the processing

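The Y-linked covariate left 83 genes higher and 24 lower, 0 claudins in either direction and 0 other tight junction genes in either direction; Cldn4 (0.25) and Cldn6 (0.10) then changed sign without passing. Replicates 5 and 6 alone gave 83 genes higher and 21 lower, and 0 claudins and 0 other tight junction genes either way. Replicates 2 to 4 alone gave 0 claudins higher, 4 other tight junction genes lower and 0.01 for Cldn4. DESeq2 gave 790 genes higher, 423 lower and 4 other tight junction genes lower. An adjusted p under 0.01 left 229 genes higher, 55 lower, 0 claudins higher and 1 other tight junction gene lower. Leaving out each embryo in turn gave 342 to 435 genes higher, 99 to 207 lower, 0 to 1 claudins higher, 1 claudin lower each time, and for Cldn4 log2 fold changes of -0.14 to 0.09. The genes lower numbered 99 to 112 without Rreb1-/- replicate 4 or without Rreb1+/+ replicate 3, 4, 5 or 6. The cause of these shifts was not tested. The covariate and the subsets leave fewer degrees of freedom. The covariate also follows the genotype in all embryos but Rreb1-/- replicate 2, so that its fit leans on that embryo. With the covariate the SE was 0.20 for Cldn7 and 0.38 for Cldn9, against 0.11 and 0.20 without it.

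With the replicate block 356 genes were lower, and it changed no call among the claudins. The sign of Cldn7, Cldn9, Cldn3, Cldn5 and Cldn12 was the same in every setting run for them, and the median log2 fold change of all genes stayed within 0.1 of 0. Counts of Cldn10 and Cldn5 (at most 18 and 47 reads) limit what can be seen of them, and 5 embryos per genotype allow an exact p no smaller than 0.00794.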
